A study of Rattus norvegicus with 4 samples.

Results

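The 10 genes described here are negative feedback genes of the FGF-ERK pathway, the PEA3 transcription factors that the pathway induces, and a repressor that ERK drives out of the nucleus, Erf. The full set is Etv1, Etv4, Etv5, Spry1, Spry2, Spry4, Spred1, Spred2, Dusp6 and Erf. They were taken by gene symbol from the 18755 genes listed for each library, and all 10 were found. All 10 also reached 1 FPKM (reads scaled to the length of the gene model and to the library's depth) in at least 1 library, as did 12394 genes in all, called tested genes below although no significance test was run. The members were chosen by name with their read counts and FPKM in all 4 libraries known, so every value below is a description. Fibroblast growth factors bind receptor tyrosine kinases, which act through adaptor proteins and RAS to switch on the RAF, MEK and ERK kinases. ERK signalling raises transcription of the PEA3 factors and of inhibitors that damp the same pathway, and these transcripts are widely used as a readout of FGF signalling. In the embryonic cortex the pathway is known for patterning the front of the hemisphere and for keeping radial glia, the neural stem cells, dividing.

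Cells were taken from the cerebral cortex of SD rat embryos at embryonic day 16 and kept for 24 h on 1 of 4 hydrogels: SFMA, N-SFMA, L-SFMA or NL-SFMA. All 4 groups shared Neurobasal medium with B27 and PS, a density of 100000 cells per well and 5 parallel wells, and the labels name no added growth factor. The question of the study was how cues for adhesion between cells, built into a gel, bear on the growth of neurons. The sources used here give neither the meaning of the letters N and L nor whether the RNA of the wells was combined. Each hydrogel has 1 library of polyadenylated RNA, so no difference could be set against a spread between replicates, and no p-value is given.

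The libraries held 14172205 to 17553098 counted reads, of which 2518 to 7808 fell on the 10 genes. Intervals beside folds are exact 95% intervals of a ratio of CPM (reads scaled to the library's summed count), and they cover counting error only. Reads on long gene models took a larger share away from SFMA: the gene model holding the median read was 2851 bases long on SFMA and 3278, 3438 and 3626 bases on N-SFMA, L-SFMA and NL-SFMA. Mitochondrially encoded genes took 2.23 to 2.68% of reads in the other libraries and 5.89% in NL-SFMA. The 3 comparisons with SFMA share the single SFMA library, so any peculiarity of it enters all 3. In bulk RNA, fewer cells of a type and less RNA per cell cannot be told apart.

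The 10 genes together were highest on SFMA, at a summed 445 CPM, and stood at 163, 222 and 233 CPM on N-SFMA, L-SFMA and NL-SFMA. On the log2(FPKM + 1) scale, 5 of the 10 were at least 2-fold lower on N-SFMA than on SFMA (Etv4, Etv5, Spry2, Spry4 and Erf), against 2.65% of all tested genes. On L-SFMA 3 were (Etv4, Etv5 and Spry4), against 3.04%, and on NL-SFMA the 5 of N-SFMA were, against 15.1%. In the other direction none passed 2-fold on N-SFMA (0.855% of tested genes) or L-SFMA (3.32%), and 1, Spred1, did on NL-SFMA (10.1%). The median log2 difference of the 10 from SFMA was -0.97, -0.78 and -1.04 in the same order of gels, beside -0.02, 0.05 and -0.10 over all tested genes. At 1.5-fold, 7, 6 and 6 members were lower, against 10.7%, 11.1% and 29.3% of tested genes, and 0, 0 and 1 higher, against 7.24%, 14.8% and 21.6%. Etv4, Spry4 and Spry1 passed the filter of 1 FPKM through SFMA alone, so that they were lower elsewhere follows from the filter. Nothing is read from their calls against the background, here or in the counts below. The 10 did not share 1 profile: Etv4, Spry4 and Etv5 stood far below SFMA on every modified gel, and Spred1 and Spred2 did not.

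**Figure D1:**
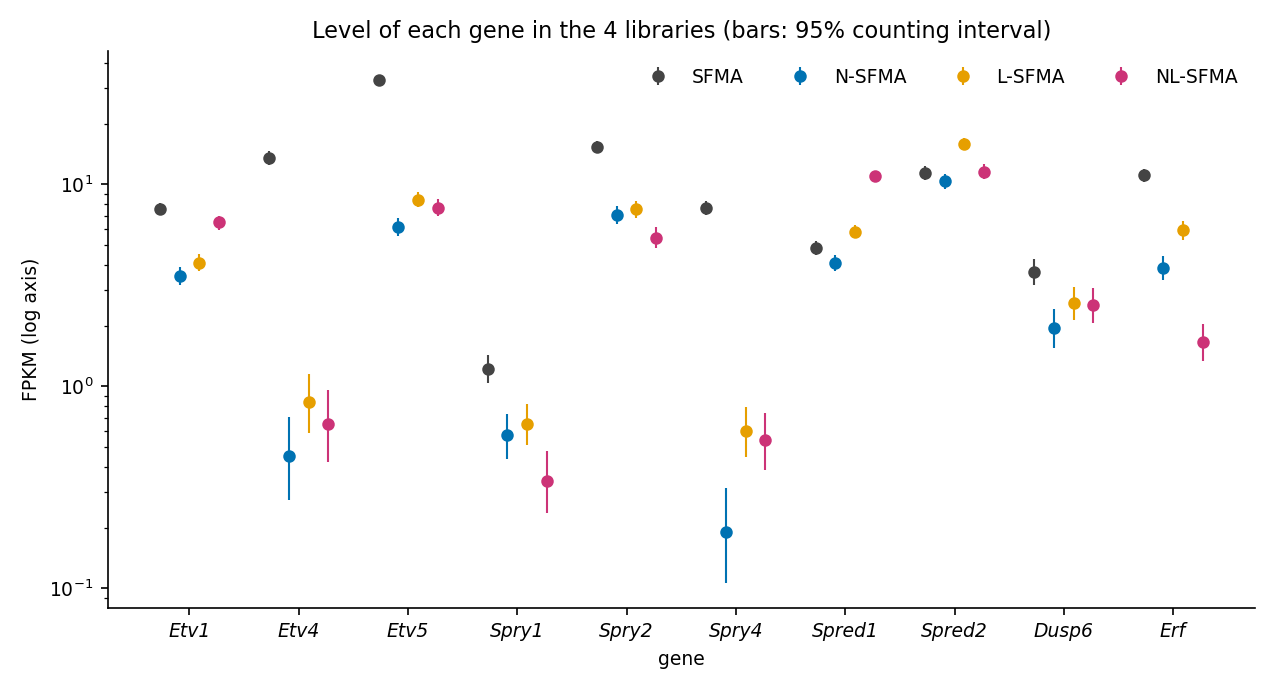
FPKM of each of the 10 genes (vertical log axis) in the 4 libraries, with bars for the 95% counting interval; each point is 1 library. Etv4 ran from 13.5 FPKM on SFMA to below 1 on the 3 other gels, whereas Spred1 was highest on NL-SFMA at 10.96 FPKM.

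Promoters were read for the genes to show what sequence stands in front of members that behaved differently. RefSeq promoter windows on the GRCr8 build, reaching from 250 bases before the annotated start to 50 after it, were matched by symbol for 9 of the 10 genes; Spry2 has 2 windows, which makes 10 windows, and Etv4 is the gene left unmatched. PEA3 factors and Erf belong to the ETS family, whose proteins bind DNA around a GGAA core, and the capitals below mark GGAA or its reverse complement TTCC. The first window is that of Etv5, the best expressed member on SFMA and one of the lowest relative to it elsewhere, at chr11:92113013-92113312 on the plus strand. The second, of Dusp6, at chr7:35979354-35979653 on the plus strand, belongs to a member with smaller differences. The last, of Spred2, at chr14:98350327-98350626 on the plus strand, belongs to a member within 1.5-fold of SFMA on every modified gel.
Etv5: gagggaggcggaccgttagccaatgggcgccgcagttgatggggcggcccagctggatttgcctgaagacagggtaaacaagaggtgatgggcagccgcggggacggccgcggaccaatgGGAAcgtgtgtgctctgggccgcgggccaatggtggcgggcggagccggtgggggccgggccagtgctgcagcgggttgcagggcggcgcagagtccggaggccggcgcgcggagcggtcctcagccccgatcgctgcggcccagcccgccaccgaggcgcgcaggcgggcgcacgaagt
Dusp6: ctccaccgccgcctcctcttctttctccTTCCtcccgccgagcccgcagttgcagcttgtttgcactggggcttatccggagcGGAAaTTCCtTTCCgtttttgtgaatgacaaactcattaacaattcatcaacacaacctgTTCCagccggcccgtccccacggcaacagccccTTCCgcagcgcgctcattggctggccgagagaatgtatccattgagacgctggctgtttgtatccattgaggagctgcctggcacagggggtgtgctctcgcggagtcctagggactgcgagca
Spred2: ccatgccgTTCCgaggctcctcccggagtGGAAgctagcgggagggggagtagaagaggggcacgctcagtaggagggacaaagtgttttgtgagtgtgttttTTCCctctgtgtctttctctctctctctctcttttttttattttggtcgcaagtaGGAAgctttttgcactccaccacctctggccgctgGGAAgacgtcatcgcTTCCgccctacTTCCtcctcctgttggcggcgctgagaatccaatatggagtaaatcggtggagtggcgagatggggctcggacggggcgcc
The core occurred 1 time in the Etv5 window, 6 times in that of Dusp6 and 7 times in that of Spred2. The windows not printed do not continue that order. Spry4, far below SFMA on every modified gel, and Spred1, which was not, both had 3. Erf had 1, Etv1 had 5, the windows of Spry2 had 4 and 2, and Spry1 had 0. Counting both strands, it was found in 9 of the 10 member windows (not in that of Spry1) and in 95.8% of the 33469 windows of the table, so it is found in front of most genes. AGGAAG, a longer PEA3 form that contains the core, was found in the windows of Dusp6 and Spred2 (2 of 10) and in 34.5% of all windows. CCGGAAG, the AP-1 motif TGANTCA and the cAMP response element TGACGTCA were in none of the 10 and in 8.75%, 7.33% and 1.83% of all windows. A match is a description of the letters, and the absence of one says nothing about the factors.

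The PEA3 factors, ETS activators that carry the transcriptional response to FGF, included the member with the largest difference on the log2(FPKM + 1) scale, Etv4. Etv5, an ETS factor active in cortical progenitors, stood at 33.0 FPKM on SFMA, then 6.17 on N-SFMA, 8.40 on L-SFMA, with 7.68 on NL-SFMA. It was the best expressed of the 10 on SFMA, and the 3 other gels lay between 6.17 and 8.40 FPKM. Etv5 was 5.35-fold lower on N-SFMA (4.80 to 5.99), 3.93-fold lower on L-SFMA (3.58 to 4.33) and 4.30-fold lower on NL-SFMA (3.88 to 4.78). Etv4 had 643 reads on SFMA and 19, 37 and 25 on N-SFMA, L-SFMA and NL-SFMA, which is 13.5, 0.455, 0.836 and 0.651 FPKM. Among the 12394 differences from SFMA, counted from the lowest, Etv4 held positions 2, 3 and 9 on N-SFMA, L-SFMA and NL-SFMA. Etv4 on NL-SFMA was 20.8-fold lower (13.9 to 32.3), and its interval stayed above that of Etv5.

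Etv1, also known as a marker of a class of deep-layer cortical neurons, followed another course. Its level was 7.58 FPKM on SFMA, then 3.52 on N-SFMA, 4.11 on L-SFMA, with 6.48 on NL-SFMA. The first of these was the highest and NL-SFMA came next, well above both single-letter gels. Etv1 was 2.16-fold lower on N-SFMA (1.91 to 2.44) and 1.85-fold lower on L-SFMA (1.65 to 2.07), and 1.17-fold lower on NL-SFMA (1.05 to 1.30). None of these reached 2-fold on the log2(FPKM + 1) scale, where they were -0.93, -0.75 and -0.20. The makeup of the trio differed accordingly: Etv4 made up 25.0% of the summed PEA3 FPKM on SFMA and 4.40 to 6.27% on the other gels, and Etv1 made up 14.0% on SFMA and 30.8 to 43.8% elsewhere. The share of Etv5 was 61.0% on SFMA and 60.8%, 62.9% and 51.8% on the others.

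**Figure D2:**
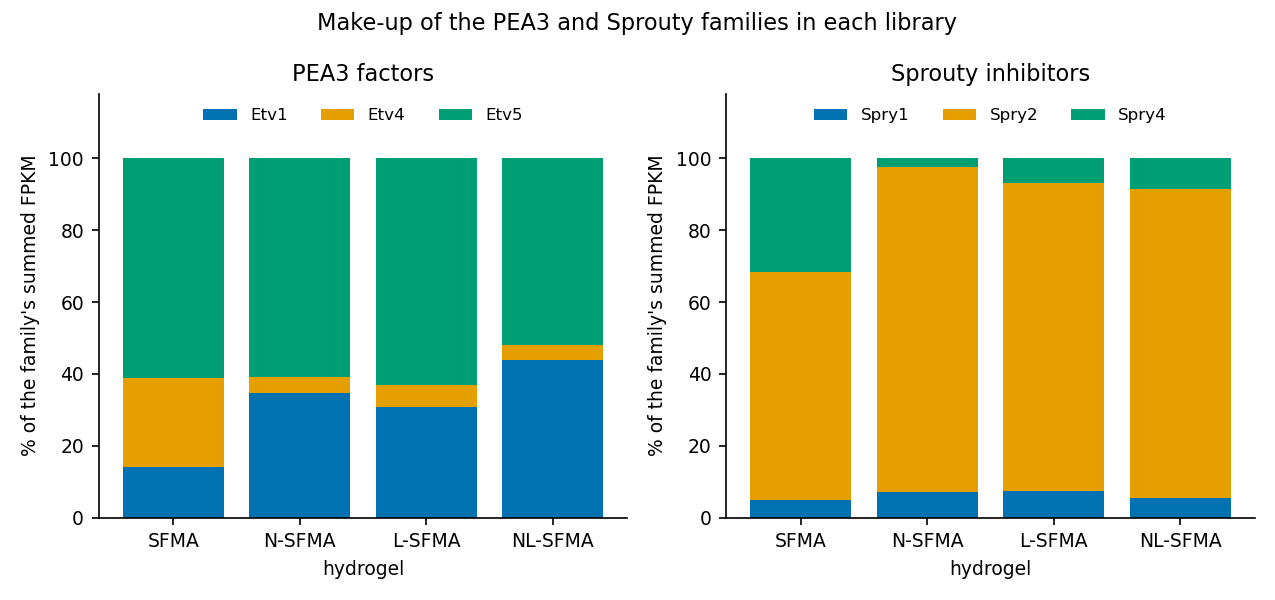
Share of the summed FPKM of the PEA3 factors (left panel) and of the Sprouty inhibitors (right panel) held by each gene, in percent (vertical axis), for the 4 libraries. Etv4 and Spry4 hold 25.0% and 31.5% of their families on SFMA, and at most 6.27% and 8.53% on the other gels.

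The Sprouty proteins inhibit receptor tyrosine kinase signalling upstream of ERK, and their transcripts separated. Spry4 was at 7.64 FPKM on SFMA, then 0.191 on N-SFMA, 0.602 on L-SFMA, with 0.541 on NL-SFMA, from 682, 15, 50 and 39 reads. It was high on SFMA alone. The fold was 40.0 lower on N-SFMA (24.1 to 71.8), 12.7 lower on L-SFMA (9.52 to 17.3) and 14.1 lower on NL-SFMA (10.2 to 20.03). Spry2 was the most abundant Sprouty on every gel, at 15.4 FPKM on SFMA, then 7.07 on N-SFMA, 7.55 on L-SFMA, with 5.46 on NL-SFMA. It was 2.17-fold (1.93 to 2.46), 2.04-fold (1.82 to 2.29) and 2.82-fold (2.46 to 3.23) lower than on SFMA. Spry1 was the least abundant member on SFMA, at 1.23 FPKM, and was at 0.573, 0.654 and 0.342 FPKM on N-SFMA, L-SFMA and NL-SFMA. Its 34 to 151 reads gave wide intervals, 2.14-fold lower on N-SFMA (1.58 to 2.93), 1.87-fold on L-SFMA (1.41 to 2.51) and 3.59-fold on NL-SFMA (2.46 to 5.37). Spry4 held 31.5% of the summed Sprouty FPKM on SFMA and 2.44%, 6.84% and 8.53% on the other gels, while Spry2 held 63.4% on SFMA and 85.7 to 90.2% elsewhere.

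The Spred proteins, relatives of the Sproutys that block RAS activation and, in the case of Spred1, bring the RAS inhibitor neurofibromin to the membrane, did not share the low levels. Spred1 was at 4.84 FPKM on SFMA, then 4.09 on N-SFMA, 5.85 on L-SFMA, with 10.96 on NL-SFMA. It was 2.26-fold higher on NL-SFMA than on SFMA (2.05 to 2.50). Spred2 was at 11.4, 10.4, 15.9 and 11.6 FPKM in the same order. Its ratio to SFMA was 0.913 on N-SFMA (0.812 to 1.03) and 1.02 on NL-SFMA (0.905 to 1.14), both intervals including 1, and 1.39 on L-SFMA (1.26 to 1.55). Spred2 was the highest of the 10 on each of the 3 modified gels, with counting intervals of Spred1 and Spred2 overlapping on NL-SFMA.

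Dusp6, the phosphatase that removes the activating phosphates from ERK, is one of the most direct ERK feedback genes, and it stayed within 2-fold on every gel. The level was 3.71 FPKM on SFMA, then 1.94 on N-SFMA, 2.59 on L-SFMA, with 2.52 on NL-SFMA, from 180, 83, 117 and 99 reads. SFMA was the highest, by 1.91-fold (1.46 to 2.50), 1.43-fold (1.13 to 1.82) and 1.47-fold (1.14 to 1.90). Erf, an ETS repressor that ERK drives out of the nucleus, was at 11.1 FPKM on SFMA, then 3.87 on N-SFMA, 5.92 on L-SFMA, with 1.66 on NL-SFMA. NL-SFMA was the lowest, below both other modified gels as well. Erf was 2.88-fold lower on N-SFMA (2.48 to 3.35), 1.88-fold lower on L-SFMA (1.65 to 2.13) and 6.69-fold lower on NL-SFMA (5.37 to 8.42).

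The order of the levels changed between gels. On SFMA it ran Etv5, Spry2, Etv4, Spred2, Erf, Spry4, Etv1, Spred1, Dusp6 and Spry1, where Spry2 and Etv4, Spred2 and Erf, and Spry4 and Etv1 overlapped in their counting intervals. On N-SFMA and L-SFMA, Spred2 came first and Etv4, Spry1 and Spry4 last, with overlapping intervals among neighbours of those last 3. On NL-SFMA, Spred2 and Spred1 came first, then Etv5, Etv1 and Spry2, each overlapping its neighbour, then Dusp6 and Erf, and last Etv4, Spry4 and Spry1.

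**Figure D3:**
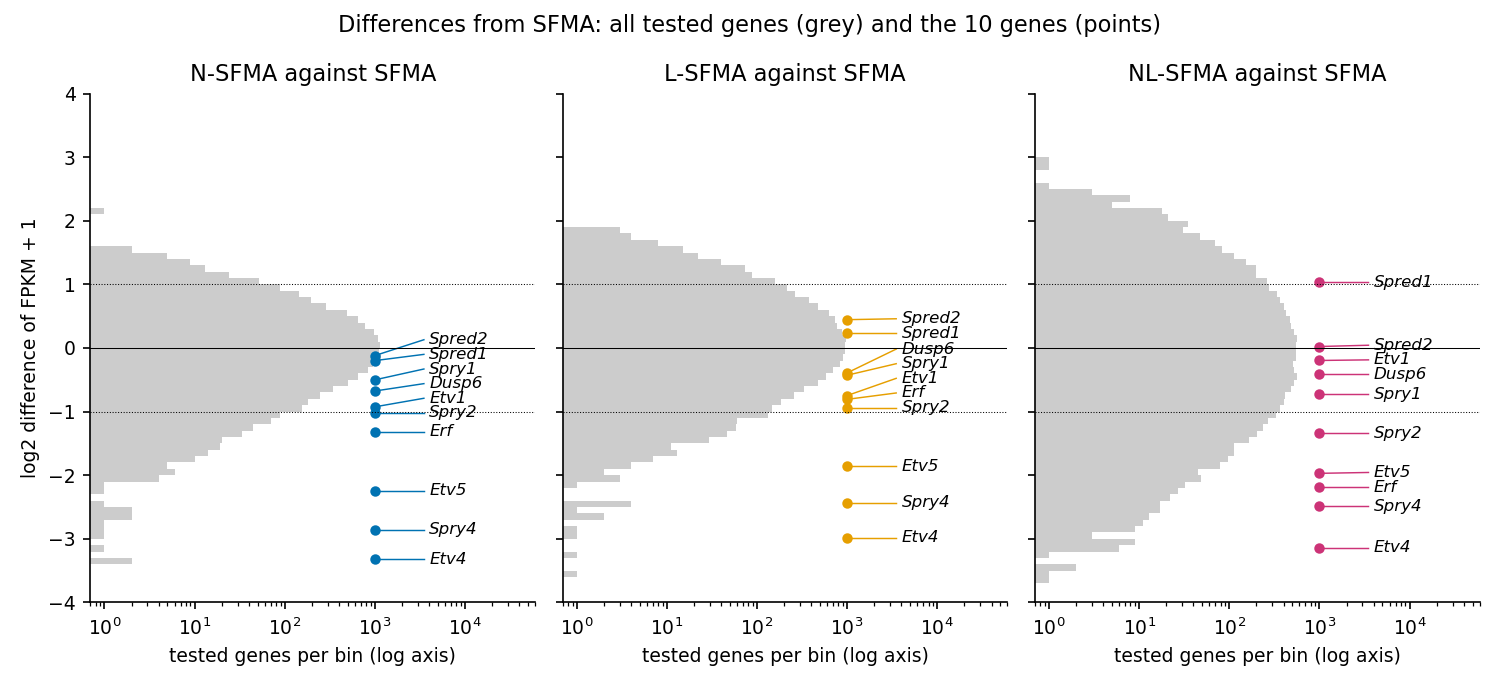
Differences from SFMA on the log2(FPKM + 1) scale (vertical axis) for the 3 modified gels: grey bars count all 12394 tested genes per bin (horizontal log axis), and each labelled point is 1 of the 10 genes, whose place from left to right has no meaning. Etv4 and Spry4 lie lowest of the 10 on each gel, from -3.32 to -2.43, and Spred1 is the highest of them on NL-SFMA at 1.03; dotted lines mark 2-fold.

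Comparing the modified gels with one another removes the SFMA library. Between L-SFMA and N-SFMA no member passed 2-fold in either direction, beside 0.25% of tested genes lower and 0.379% higher on L-SFMA. By CPM, Spry4 was 3.15-fold higher on L-SFMA than on N-SFMA (1.74 to 6.03) and Erf 1.53-fold higher (1.30 to 1.82), whereas the ratio of Spry2 was 1.07 (0.928 to 1.23). On NL-SFMA against N-SFMA, 1 member was higher (Spred1, background 2.15%) and none lower (5.58%). Spred1 was 2.68-fold higher there (2.41 to 2.99) and Etv1 1.84-fold higher (1.62 to 2.11), and Erf was 2.33-fold lower (1.82 to 3.00). On NL-SFMA against L-SFMA, 1 member was lower (Erf, background 6.87%) and none higher (0.871%). Erf was 3.57-fold lower there (2.82 to 4.54). At 1.5-fold, Etv1 and Spred1 were higher on NL-SFMA than on N-SFMA (2 members, background 12.5%) and Erf lower (18%), and Spred1 was higher than on L-SFMA (7.23%) and Erf lower (20.9%).

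The hydrogel names can be read as 2 modifications, provided that each letter means the same in both names that hold it. The difference of differences, NL-SFMA minus N-SFMA minus L-SFMA plus SFMA on the log2(FPKM + 1) scale, is 0 where the differences of the 2 letters add. It was 3.17 for Etv4, 2.80 for Spry4, 2.13 for Etv5, 1.48 for Etv1 and 1.00 for Spred1. These 5 were at least 1, beside 2.94% of tested genes, and none was at -1 or below, beside 3.95%. For Etv4, Spry4 and Etv5, the difference from SFMA on NL-SFMA (-3.14, -2.49 and -1.97) lay between those on N-SFMA (-3.32, -2.86 and -2.25) and on L-SFMA (-2.98, -2.43 and -1.86). The scale cannot fall below 0, and Etv4 and Spry4 were already under 1 FPKM with a single letter, so the scale fixed the calls of both: at 0 FPKM on NL-SFMA their values would still be 2.44 and 2.18. Nothing is read from these 2 calls against the background. Dusp6 had 0.65, Spry2 0.62, Spry1 0.20, Erf -0.06 and Spred2 -0.30.

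Length of the gene model bears on these differences, since long genes read higher away from SFMA. With the trend of the difference on model length removed by a smooth curve through all tested genes, 6 members were at least 2-fold lower on N-SFMA (background 1.33%), 5 on L-SFMA (1.3%) and 6 on NL-SFMA (7.41%). None was then at least 2-fold higher on any of the 3 (1.07%, 2.31% and 8.08%), nor on NL-SFMA against N-SFMA (2.74%). Etv1 joined on N-SFMA and L-SFMA, Spry2 on L-SFMA and Spry1 on NL-SFMA. Spry1, like Etv4 and Spry4, had reached 1 FPKM on SFMA alone. The difference of Etv4, with a model of 2709 bases, was -3.25, -2.97 and -2.91 on N-SFMA, L-SFMA and NL-SFMA after removal, close to -3.32, -2.98 and -3.14 before. Spred1, whose model of 7495 bases is the longest of the 10, went from 1.03 to 0.36 on NL-SFMA, so its 2-fold difference was not kept. Etv1, with 6693 bases, went from -0.20 to -0.79 on the same gel.

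**Figure D4:**
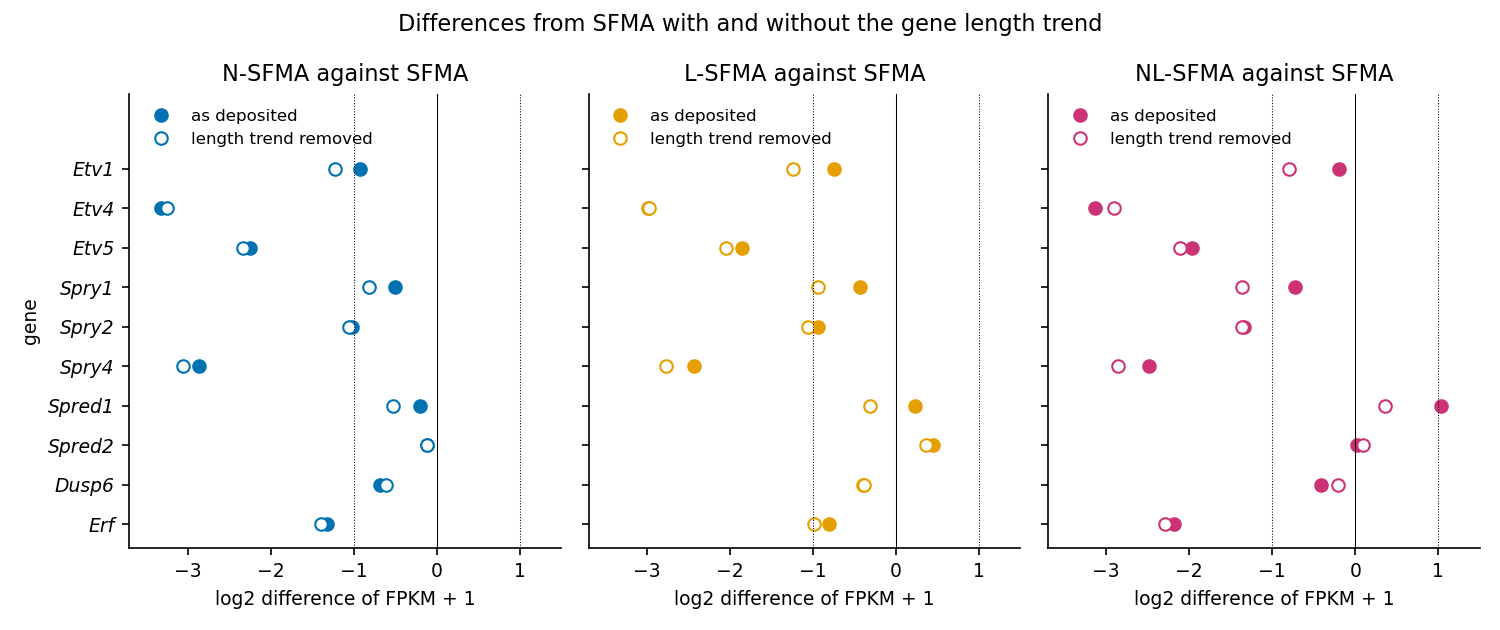
Difference of each of the 10 genes from SFMA on the log2(FPKM + 1) scale (horizontal axis), as deposited (filled) and with the trend on gene model length removed (open), for the 3 modified gels. The points of Etv4 hardly shift, and Spred1 on NL-SFMA goes from 1.03 to 0.36.

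Cell type markers were set beside the members, because FGF feedback genes are expressed in radial glia. The 16 radial glia and progenitor markers were all tested, and their summed FPKM was 1742 on SFMA and 827, 862 and 926 on N-SFMA, L-SFMA and NL-SFMA. Of the 16, 5, 3 and 4 were at least 2-fold lower on N-SFMA, L-SFMA and NL-SFMA, against 2.65%, 3.04% and 15.1% of tested genes. The medians of the 16 were -0.63, -0.29 and -0.71, and with the length trend removed -0.55, -0.44 and -0.28. At 1.5-fold, 9, 4 and 9 of the 16 were lower (10.7%, 11.1% and 29.3% of tested genes). On the same rule 0, 1 and 2 were higher (7.24%, 14.8% and 21.6%). The markers did not move together. The lipid carrier Fabp7, at 264, 46.7, 58.9 and 41.6 FPKM, had the lowest differences of the 16, and the stem cell factor Sox2 was at 72.1, 44.4, 52.3 and 30.7 FPKM. By CPM, Slc1a3 was 3.45-, 2.68- and 2.09-fold lower, Vim 2.03-, 2.24- and 1.72-fold and Hopx 2.12-, 1.91- and 3.53-fold. By contrast, Nes was at 17.5, 15.6, 18.3 and 14.9 FPKM, Sox9 at 16.2, 10.96, 12.4 and 16.1, and Prom1 at 5.92, 5.30, 5.23 and 5.96. The receptor phosphatase Ptprz1 was 1.84-fold higher by CPM on NL-SFMA (1.75 to 1.93), Ednrb 1.68-fold higher there, and Hes5 highest on L-SFMA, at 18.0 FPKM against 10.5 on SFMA. As log2 differences Fabp7 was at -2.47, -2.14 and -2.64, far from the median of the 16, so that median hides a wide spread. Set against the radial glia median, Etv4 was at -2.69, -2.70 and -2.43, Spry4 at -2.23, -2.15 and -1.78, and Etv5 at -1.62, -1.57 and -1.26. Erf was past 2-fold on NL-SFMA alone, at -1.48. On that scale 3, 3 and 4 members were at least 2-fold lower, against 0.379%, 1.07% and 3.48% of tested genes, and Spred1 was called higher on NL-SFMA against L-SFMA, against 5.79%. Spry2 was at -0.39, -0.65 and -0.63 on that scale, and Dusp6 at -0.05, -0.10 and 0.29. Etv1, at -0.30, -0.46 and 0.51, was above the radial glia median on NL-SFMA as deposited. With the length trend removed, its difference from SFMA there was -0.79 and the radial glia median -0.28, so Etv1 lay below that median. The part of cell composition in the members' levels was not tested.

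Markers of other cell types are given as summed levels, first for SFMA and then for N-SFMA, L-SFMA and NL-SFMA. The 8 pan-neuronal markers stood at 2662, 3615, 2920 and 2817 FPKM and the 10 cell cycle genes at 547, 320, 310 and 290. Both sums hide members that went the other way or further. Mki67 was 1.64-, 1.79- and 3.25-fold higher than on SFMA by CPM, and Map2 and Dcx were 3.96- and 3.89-fold higher on NL-SFMA. On the log2(FPKM + 1) scale, 1 cell cycle gene was called higher on NL-SFMA and 6 lower (10.1% and 15.1% of tested genes). With the length trend removed these counts were 0 and 1 (8.08% and 7.41%), so Mki67 was not past 2-fold. Of the pan-neuronal markers, 3 were called higher on NL-SFMA with and without the trend. Intermediate progenitor markers (6 of 6 tested) summed to 256, 252, 304 and 135 FPKM and excitatory neuron markers (10 of 10) to 574, 708, 775 and 708. Interneuron markers (9 of 9) summed to 370.5, 272, 243 and 135 FPKM and meningeal markers (1 of 6) to 2.93, 1.79, 2.05 and 1.75. The interneuron medians were -0.05, -0.02 and -0.73 as log2 differences, so that sum too hides a spread. Of these 9, 0, 1 and 3 were called lower (2.65%, 3.04% and 15.1% of tested genes) and none higher (0.855%, 3.32% and 10.1%). By CPM, Sst was 1.86-, 2.47- and 5.91-fold lower, and Gad1 was 1.18-, 1.27- and 1.24-fold higher. Astrocyte markers (7 of 8 tested) summed to 115, 70.3, 80.0 and 50.4 FPKM, and the astrocyte proteins Gfap and Aqp4 never passed 2.69 and 0.19 FPKM. Oligodendrocyte lineage markers (5 of 8 tested) summed to 16.4, 10.8, 12.9 and 9.08 FPKM and microglia markers (3 of 8) to 21.9, 8.16, 15.7 and 6.69. Endothelial markers stayed between 0.953 and 1.40 FPKM in sum, with none of 7 tested. Erythroid genes summed to 546, 161, 90.8 and 69.7 FPKM and were also highest on SFMA. No marker was at 0 in all 4 libraries.

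Counts of called genes in the lists below are on the log2(FPKM + 1) scale, which understates folds of low genes, so a fold by CPM can pass 2 where no call is made. Over all tested genes, 2.65%, 3.04% and 15.1% were lower on N-SFMA, L-SFMA and NL-SFMA, and 0.855%, 3.32% and 10.1% higher. With the length trend removed, 1.33%, 1.3% and 7.41% were lower, and 1.07%, 2.31% and 8.08% higher. A list count near these shares is not read as a result about the list. Secreted FGF ligands were scarce: of 15, 11 were found and 2 tested, and neither was called on any gel. With the length trend removed, 1 ligand, Fgf22, was at least 2-fold higher on L-SFMA and NL-SFMA. Fgf22, a ligand known for synapse formation, was at 6.69, 7.09, 13.8 and 8.98 FPKM in the same order of gels, and Fgf18 at 1.14, 1.58, 1.82 and 1.22. By CPM, Fgf22 was 2.07-fold higher on L-SFMA than on SFMA (1.65 to 2.60). Fgf2, the ligand used to expand neural progenitors, was listed at 0 in the first 3 libraries and at 0.107 FPKM on NL-SFMA. The intracellular Fgf13, which is not secreted and binds sodium channels, was at 23.8, 33.6, 28.6 and 39.7 FPKM. Of 4 receptors tested, 1 was lower on each gel, Fgfrl1, which lacks a kinase domain, and none was higher. Fgfrl1 was at 10.2, 3.55, 4.06 and 2.90 FPKM, a 2.88-, 2.51- and 3.52-fold lower level. Fgfr1, the main receptor by level here, was at 58.7, 45.6, 60.6 and 34.9 FPKM, Fgfr3 at 17.0, 10.6, 16.7 and 8.13, and Fgfr2 at 7.71, 9.89, 13.6 and 10.9. By CPM, Fgfr3 was 2.09-fold lower on NL-SFMA (1.89 to 2.33), and with the length trend removed Fgfr3 and Fgfrl1 were both called lower there. The receptor medians as deposited were -0.50, 0.01 and -0.86.

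Between receptor and ERK, the calls depended on gene length. Of 11 adaptors and RAS exchange factors, none was lower on any gel, and 0, 1 and 4 were higher on N-SFMA, L-SFMA and NL-SFMA. The 4 were the FGF receptor substrate Frs2 (1.54), the exchange factors Sos1 (1.53) and Sos2 (1.51), and the adaptor Crkl (1.07), as log2 differences. Their models have 5055 to 6625 bases, and with the length trend removed they were at 0.96, 0.94, 0.99 and 0.70, so that none was called. Of 16 tested members of the RAS, RAF, MEK and ERK group, none passed 2-fold on N-SFMA or L-SFMA. On NL-SFMA 2 were higher (the scaffold Shoc2 at 1.36 and the kinase Braf at 1.12), against 10.1% of tested genes. Another 2 were lower there (Hras at -1.43 and Map2k2 at -1.01), against 15.1%, so both counts were near the background. With the trend removed, 1 was higher there (Shoc2, at 1.30) and 3 were lower. Of 7 RAS GTPase activating proteins, 1, 1 and 3 were higher and none lower. Their models have a median of 6500 bases, and with the length trend removed 0, 0 and 2 were higher and 1, Rasa3, was lower on NL-SFMA, where the list's median turned from 0.71 to -0.30. Nf1, which encodes neurofibromin, the partner of Spred1, was at 2.55, 6.53, 7.71 and 17.4 FPKM, and with the trend removed its difference on NL-SFMA was 1.52 instead of 2.37.

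Other feedback genes of the pathway did not share the low levels of Etv4 and Spry4. Of 11 tested, none was lower on N-SFMA or L-SFMA and 1 (Cnpy2) was on NL-SFMA, while 0, 2 and 4 were higher; with the length trend removed none was lower and 0, 0 and 3 were higher. The ubiquitin ligase Cbl, which takes down activated receptors, was at 5.36, 10.7, 12.6 and 23.4 FPKM. Spred3 was at 4.78, 5.91, 6.90 and 5.59 FPKM and the FGF antagonist Il17rd at 1.11, 1.44, 1.59 and 1.92, and Spry3 did not reach 0.7 FPKM in any library. Of 6 tested MAPK phosphatases other than Dusp6, none passed 2-fold in either direction on any gel, with medians of -0.23, -0.05 and -0.38. The largest differences were those of Dusp2 and Dusp10. By CPM, Dusp2, an inducible nuclear phosphatase, was 2.79-fold lower on NL-SFMA (1.40 to 6.05), with a difference of 0.02 once the length trend was removed, and Dusp10, which acts mainly on the stress kinases, was 1.82-, 1.55- and 1.74-fold lower. The nuclear ERK phosphatase Dusp4 was at 93.0, 80.9, 107 and 73.4 FPKM, far above Dusp6, and Dusp7, a cytoplasmic ERK phosphatase like Dusp6, was at 5.47, 5.31, 8.58 and 7.01.

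Among 9 tested transcription factors of the ETS family outside the members, 1 was lower on N-SFMA and on L-SFMA and none was called on NL-SFMA; with the length trend removed, 1 was lower on each gel. That gene was Elk3, an ETS repressor that ERK can turn into an activator, at 2.05, 0.211, 0.485 and 0.645 FPKM, or 9.72-, 4.22- and 3.18-fold lower by CPM. Elk3 reached 1 FPKM on SFMA alone, so that it was lower elsewhere follows from the filter, and nothing is read from its calls. Elk4 was 2.41-fold higher by CPM on NL-SFMA (2.13 to 2.73), and its difference was -0.02 once the length trend was removed. Ets2 was at 1.93, 2.10, 1.86 and 1.56 FPKM. Among 13 tested ERK-inducible genes outside the pathway itself, 4, 4 and 6 were lower and 0, 1 and 1 higher, and the medians were -0.66, -0.59 and -0.89. Fos, an immediate early gene, was at 15.7, 0.816, 1.62 and 0.799 FPKM, which is 19.2-, 9.69- and 19.6-fold lower than on SFMA. Egr1, another immediate early gene, was at 2.95, 1.17, 0.983 and 0.680 FPKM, and the cell cycle regulator Ccnd1 at 15.1, 5.02, 5.96 and 6.46. Myc, in contrast, was at 23.7, 24.2, 25.3 and 17.9 FPKM.

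**Figure D5:**
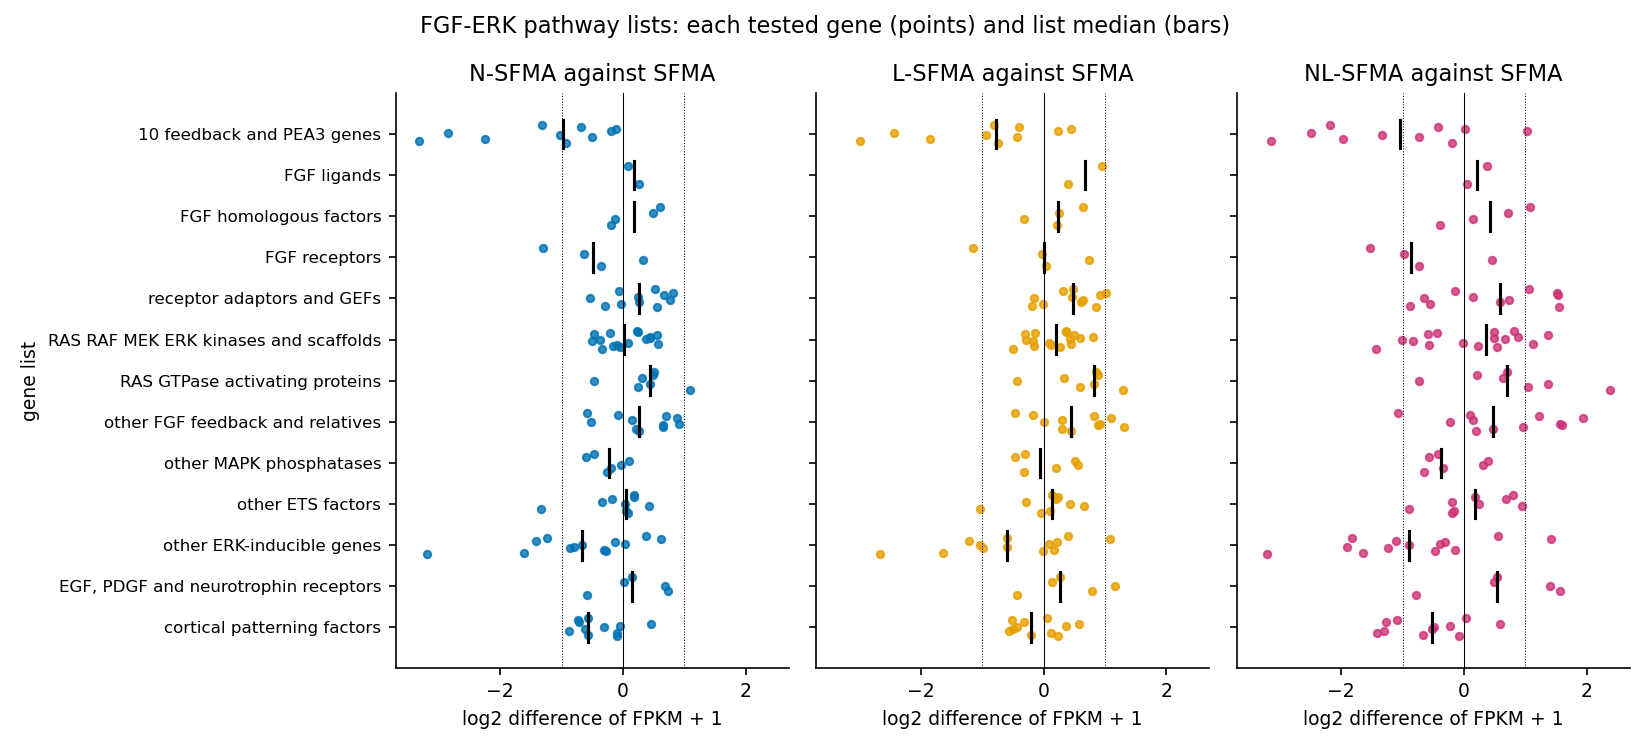
Difference from SFMA on the log2(FPKM + 1) scale for the tested genes of each pathway list and for the 10 genes (horizontal axis), with 1 point per gene, a bar at the list's median and 1 panel per modified gel. The ERK-inducible genes reach as low as Fos at -3.20 on N-SFMA, near Etv4 at -3.32, while the adaptors reach up to Frs2 at 1.54 on NL-SFMA.

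The genes with the most similar profile were sought among 9213 non-member genes that reached 5 FPKM in the higher library, by the distance between their 3 log2 differences from SFMA and those of a member. The 3 differences share the SFMA library, so nearness is a description over 4 libraries. Nearest to Etv4 were the thyroid hormone transporter Slco1c1 (0.33), Fos (0.34), the metallothionein Mt3 (0.56), the embryonic globin Hbe1 (0.85) and the nuclear receptor Nr4a1 (0.93). Nearest to Spry4 were the metallothionein Mt2A (0.28), Fabp7 (0.50), Nr4a1 (0.63), Fos (0.84) and Cnn2 (0.88). Once the length trend was removed, the 5 nearest to Spry4 were Fos, Slco1c1, Nr4a1, Mt3 and Hbe1. Mt2A, Fabp7 and Cnn2 were then no longer among them. Among the genes nearest to Erf were Id1 (0.23) and Id3 (0.24), inhibitors of neuronal differentiation factors, with Snrnp25 (0.19) and Srsf9 (0.21); with the length trend removed, Srsf9 alone of these 4 was still among the 5 nearest. Etv4, Spry4 and Etv5 had no close neighbour, in that their nearest genes lay 0.28 to 0.33 away, whereas the growth factor Ptn lay 0.02 from Spry2 and Rasa3 lay 0.03 from Spry1. Few genes had differences as large as those of Etv4, Spry4 and Etv5, so few could lie near them. The contrast is not read as a trait of these genes. Ptn and Rasa3 were not among the 5 nearest once the length trend was removed, whereas Etv4 kept its 5 genes in another order.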

How the data were processed

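RNA from rat cortical cells on 4 hydrogels was measured, with 1 library per hydrogel (NEBNext Ultra kit, 1.5 µg of RNA, per the labels). The deposited count column holds whole reads per gene. HISAT2 (no version given) and HTSeq 0.13.5 are named in the submitters' processing notes, with the builds GRCh38 and mRatBN7.2 and no role for either. The deposited FPKM column is the authors' count divided by gene model length and by the library's summed count, which was checked by recovering whole lengths to within 1e-06 bases. The sources used here do not give the strand setting of the counting, so reads of overlapping and antisense genes cannot be told apart. RNA-seq reads carry no molecular identifiers, and intervals cover counting error only. The treatment labels write L@SFMA and NL@SFMA for the samples titled L-SFMA and NL-SFMA.

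Differences are of log2(FPKM + 1), which understates the fold of low genes, among genes of at least 1 FPKM in 1 library, and a gene is called at 2-fold. Folds are ratios of CPM from the counts with exact (Clopper-Pearson) 95% intervals. No test fits 1 library per group. Alternatives were a pseudocount of 0.1 FPKM, a filter of 5 FPKM or none, a 1.5-fold rule, TMM and RLE scaling (edgeR 4.0.16), totals without mitochondrial genes, the length trend removed by lowess (fraction 0.3, 3 iterations; statsmodels 0.14.6), and values relative to the radial glia median. The script was tested on simulated data. The members, the lists and these choices were made with earlier results of these data known. Named genes are the 10 members, up to 4 tested genes per pathway list with the largest difference from SFMA, fixed pathway genes (Fgfr1, Fgfr2, Fgfr3, Mapk3, Fgf2, Fgf13, Dusp1, Dusp4, Dusp5, Dusp7, Ets2, Spry3, Spred3, Il17rd, Egr1, Fos, Ccnd1 and a gene that is not reported here), and the 5 genes of most similar profile per member. Myc, Cnpy2 and single cell type markers fall outside that rule and were chosen after their values were seen. Mapk3, Dusp1 and Junb were not matched by symbol and are not analysed here.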

Additional observations from a re-analysis of the deposited data

Results flagged for a closer look

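In 5 pairs of comparisons, the same letter went with a lower level of a gene in 1 pair of gels and a higher level in the other, and no counting interval of these ratios included 1. These differences were not tested, since each gel has 1 library. Etv1 had an N-SFMA to SFMA ratio of 0.464 and an NL-SFMA to L-SFMA ratio of 1.58. With the letter L, the Etv1 ratio was 0.542 for L-SFMA to SFMA and 1.84 for NL-SFMA to N-SFMA. Etv5 had 0.254 for L-SFMA to SFMA and 1.25 for NL-SFMA to N-SFMA. Spry4 had 0.0788 and 2.83 for the same pairs, the second from 39 and 15 reads. Spred1 had 0.845 for N-SFMA to SFMA and 1.87 for NL-SFMA to L-SFMA. With the length trend removed, the log2 differences kept their opposite signs: -1.22 and 0.44, then -1.24 and 0.43 for Etv1, -2.05 and 0.22 for Etv5, -2.77 and 0.18 for Spry4, and -0.53 and 0.66 for Spred1. Relative to the radial glia median, Spred1 on N-SFMA against SFMA was at 0.43, so its pair no longer had opposite signs; the other 4 pairs kept theirs.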

How the results depend on the processing

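With 1 library per hydrogel no library could be left out, and the samples carry no shared numbers. No paired analysis was possible because each gel has a single library. Of 30 member differences from SFMA, 24 kept their sign under every alternative; the exceptions were Etv1 and Dusp6 on NL-SFMA, Spred1 on N-SFMA and L-SFMA, and Spred2 and Spry1 on N-SFMA. Counts of genes moved as follows, each written as higher then lower. Main counts were 106 and 328 for N-SFMA against SFMA, 412 and 377 for L-SFMA, 1251 and 1872 for NL-SFMA, 47 and 31 for L-SFMA against N-SFMA, 267 and 692 for NL-SFMA against N-SFMA, 108 and 851 for NL-SFMA against L-SFMA, and 364 and 490 for the difference of differences. A 1.5-fold rule gave, in the same order, 897 and 1327, 1836 and 1371, 2681 and 3632, 372 and 135, 1553 and 2233, 896 and 2591, and 1098 and 2312. Under it 6 members were lower on L-SFMA, 2 higher and 1 lower on NL-SFMA against N-SFMA, and 1 higher on NL-SFMA against L-SFMA. A pseudocount of 0.1 FPKM, which lifts low genes, gave 331 and 647 on N-SFMA, 909 and 618 on L-SFMA, 219 and 100 on L-SFMA against N-SFMA, 629 and 1124 on NL-SFMA against N-SFMA, 283 and 1402 on NL-SFMA against L-SFMA, and 634 and 993 for the difference of differences. With it 1 member was higher on L-SFMA against N-SFMA, and 2 were higher and 1 lower on NL-SFMA against N-SFMA. Removing the length trend left 165 genes lower on N-SFMA, 161 on L-SFMA, 919 on NL-SFMA and 303 on NL-SFMA against N-SFMA, and 262 higher and 366 lower on NL-SFMA against L-SFMA; 5 members were lower on L-SFMA, and 0 higher on NL-SFMA against SFMA or N-SFMA. RLE scaling gave 225 higher and 537 lower on NL-SFMA against L-SFMA and 311 lower in the difference of differences. TMM scaling gave 192 higher on NL-SFMA against L-SFMA. A filter of 5 FPKM gave 20 and 11 on L-SFMA against N-SFMA and 239 higher in the difference of differences. Relative to the radial glia median, 3 members were lower on N-SFMA (0.379% of tested genes) and 1 was higher on NL-SFMA against L-SFMA (5.79%). The cause of these moves was not tested. Etv4, Spry4 and Spry1 rest on 15 to 75 reads away from SFMA, which limits their folds.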

Other observations

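Receptors of other growth factors went both ways. Of 5 tested receptors of the EGF, PDGF and neurotrophin families, none was at least 2-fold lower on any gel on the log2(FPKM + 1) scale. On N-SFMA, L-SFMA and NL-SFMA 0, 1 and 2 were higher, against 0.855%, 3.32% and 10.1% of tested genes. After the length trend was removed, 2 were higher and 1, Erbb2, lower on NL-SFMA. Erbb4, a neuregulin receptor of interneurons, was at 0.801, 2.00, 2.11 and 4.32 FPKM, first on SFMA and then on N-SFMA, L-SFMA and NL-SFMA, and the insulin-like growth factor receptor Igf1r at 4.87, 8.40, 12.1 and 14.5. Erbb2, a receptor partner of the same family as Erbb4, was lower than on SFMA by CPM on all 3 gels, by 1.78-fold, 1.51-fold and 2.22-fold (1.76 to 2.83). Among 11 tested cortical patterning factors, none passed 2-fold on N-SFMA or L-SFMA, and 4 were lower on NL-SFMA (15.1% of tested genes). These were Emx1 (59.2, 55.1, 64.7 and 21.5 FPKM), Emx2 (12.8, 6.50, 8.40 and 4.62), Dmrta2 (19.4, 11.5, 15.4 and 7.43) and Dmrt3 (4.76, 2.46, 3.02 and 1.71), all transcription factors of the dorsal forebrain.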
